A study of Mus musculus with 5 samples.

Results

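The cells described here were the dividing cells of livers from mice given a carcinogen and a Western alcohol diet, found in 3 single-cell RNA-seq libraries. They were chosen by transcript detection alone: a cell was called cycling when its barcode held 2000 or more UMIs (unique molecular identifiers, each counting 1 captured transcript) and at least 1 UMI of 4 or more of Mki67, Top2a, Birc5, Cdk1, Ccnb1, Ccnb2 and Cenpf. The rule found 223 cycling cells among 21363 cells with 2000 or more UMIs in these 3 libraries, of 24007 barcodes in the whole series. Because the cells were selected on these 7 genes, every difference between cycling and other cells given below is a description of the selected cells and carries no test.

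The mice were male Rosa26mTmG;Col1a1-Cre animals on the C57BL/6J background. They received diethyl nitrosamine (DEN, a liver carcinogen, 10 mg/kg) at 2 weeks of age and, from 6 weeks of age, a liquid Western alcohol diet (WAD) with 3.5% v/v ethanol for 5 months, or saline and chow. Non-parenchymal liver cells were sorted by vitamin A autofluorescence (VitA) and by the GFP that the Col1a1-Cre transgene switches on in the Rosa26mTmG reporter, which gave 1 library each of VitA+ Col1a1+ DEN+WAD, VitA- Col1a1+ DEN+WAD, VitA+ Col1a1+ chow and VitA- Col1a1+ chow cells and 1 labelled VitA- Col1a1- DEN+WAD. GFP in this reporter marks every cell in which the transgene promoter has ever driven Cre, and its descendants, so the Col1a1+ gate records promoter history and not current Col1a1 RNA. Cre and reporter were common to all 5 libraries, and the number of mice behind each is not given in the sources used here. The labels call all cells hepatic stellate cells, yet many held markers of other lineages, and the VitA- Col1a1- labelled library had 1070 CPM of Col1a1 (UMIs per 1000000 UMIs, used as the unit of level throughout), above the 304 CPM of the VitA+ Col1a1+ DEN+WAD library. It is therefore called the VitA- Col1a1- labelled library throughout. The VitA+ Col1a1+, VitA- Col1a1+ and VitA- Col1a1- labelled libraries of DEN+WAD mice held 149936344, 47633435 and 105670468 UMIs, and the VitA+ and VitA- chow libraries 6145748 and 14996899.

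A dividing cell passes through G1, copies its DNA in S phase, checks the copy in G2 and separates the chromosomes in mitosis (M). When cyclin-dependent kinases inactivate the retinoblastoma protein, E2F factors switch on the replication and nucleotide synthesis genes, and later the MuvB complex with B-Myb and FoxM1 switches on the G2 and M genes through a promoter element called the cell cycle genes homology region (CHR), often beside CCAAT boxes bound by NF-Y. In quiescent adult liver few cells divide, whereas injury brings hepatocytes, endothelial cells, macrophages and stellate cells back into the cycle. Stellate cells store retinoid as vitamin A droplets at rest and, when activated, take on a matrix-producing, contractile state that is known to proliferate.

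Most of the 7 genes of the rule peak late in the cycle. Mki67 encodes the Ki-67 protein that coats mitotic chromosomes, Top2a the topoisomerase that untangles sister DNA, Birc5 the chromosomal passenger survivin, Cdk1 the mitotic kinase, Ccnb1 and Ccnb2 its B-type cyclins, and Cenpf a kinetochore protein. The sequences that precede their start sites are shown for the 3 genes with the most CHR elements and, for contrast, for Birc5 and Ccnb1. Those 2 genes held neither CHR spelling searched, and other spellings were not searched. Shown are 120 bases upstream of the RefSeq transcription start, in GRCm38.p6 (the build of the mm10 files), 5′ to 3′ on the gene's own strand. Capitals mark CHR (TTTGAA or TTCGAA) and CCAAT on either strand. The windows are chr7:135716380-135716499 (minus strand) for Mki67, chr11:99024190-99024309 (minus strand) for Top2a, chr10:69352913-69353032 (minus strand) for Cdk1, chr11:117849117-117849236 (plus strand) for Birc5 and chr13:100786487-100786606 (minus strand) for Ccnb1.
Mki67: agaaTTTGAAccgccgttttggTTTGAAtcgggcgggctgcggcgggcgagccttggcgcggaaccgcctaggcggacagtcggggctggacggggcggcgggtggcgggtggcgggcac
Top2a: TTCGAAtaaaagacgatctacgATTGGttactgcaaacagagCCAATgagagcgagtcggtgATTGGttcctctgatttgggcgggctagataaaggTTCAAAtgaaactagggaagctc
Cdk1: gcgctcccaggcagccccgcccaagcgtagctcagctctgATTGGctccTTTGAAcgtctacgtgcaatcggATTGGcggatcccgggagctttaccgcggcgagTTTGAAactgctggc
Birc5: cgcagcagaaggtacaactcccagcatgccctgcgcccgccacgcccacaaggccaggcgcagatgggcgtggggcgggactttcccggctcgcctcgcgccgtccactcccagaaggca
Ccnb1: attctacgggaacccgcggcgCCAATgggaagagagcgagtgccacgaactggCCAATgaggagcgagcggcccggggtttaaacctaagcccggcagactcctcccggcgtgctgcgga
Within 250 bases upstream, CHR occurred in 4 of the 7 genes, with 2 matches in Mki67, 4 in Top2a, 2 in Cdk1 and 1 in Ccnb2, and in 17.1% of all 32851 RefSeq windows of that length. CCAAT occurred in 6 of the 7, with Birc5 the exception, and in 33.8% of all windows. An E2F element (TTTCCCGC, TTTCGCGC, TTTGCCGC or TTTGGCGC, either strand) occurred in Cdk1 and not in the other 6 genes, and in 1.86% of all windows. Of the replication genes with a window, 8 of 23 held an E2F element, and of the spindle and kinetochore genes 1 of 27 did, while CHR was found in 6 of 23 and 9 of 27. These matches describe letters in the windows and are neither binding sites nor causes.

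Cycling cells were rare in all 3 DEN+WAD libraries and most frequent in the VitA- Col1a1- labelled library. That library held 178 cycling cells of 8431 (2.11%, exact Clopper-Pearson 95% interval 1.82 to 2.44), the VitA+ Col1a1+ library 37 of 10309 (0.359%, 0.253 to 0.494) and the VitA- Col1a1+ library 8 of 2623 (0.305%, 0.132 to 0.600). These and all later intervals cover counting error only, since each group is 1 library. The chow libraries had 1 cycling cell of 255 (VitA+ Col1a1+; 0.392%, 0.00993 to 2.17) and 1 of 647 (VitA- Col1a1+; 0.155%, 0.00391 to 0.858), so that too few chow cells were sequenced to set the diet groups apart at this depth. The chow VitA+ cell held only 6 UMIs of the 7 genes. With every cell thinned to 5000 UMIs, 126 of 7323 cells (1.72%), 27 of 10213 (0.264%) and 7 of 2572 (0.272%) remained in the same order of libraries, with 0 of 254 (which allows a share of up to 1.18%, taken here and below as 3 counts of the total) and 1 of 643 in chow. Thinning left out 2547, 268 and 157 shallower barcodes of the 3 DEN+WAD libraries. Of the 223 barcodes, 1 also occurred in another library.

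The threshold of 4 genes cut through a gradient, which is given as a description of the neighbouring cells. In the VitA+ Col1a1+ library, the 9 cells with 3 of the 7 genes held 3221 CPM of a 43-gene S phase list and 1650 CPM of a 46-gene G2 and M list (S list and G2M list below), and the 4 cells with 4 genes held 3274 and 1728 CPM. Cells with 1 gene were at 424 and 1073 CPM. In the VitA- Col1a1- labelled library, the 46 cells with 3 genes held 1168 CPM of the S list and 1920 CPM of the G2M list, and the 30 cells with 4 genes 2450 and 3435 CPM. Such cells, with a raised S list and 3 or fewer of these mostly late genes, were not counted as cycling. All 7 genes were found in 23 of 37 cells of the VitA+ Col1a1+ library (62.2%), 4 of 8 of the VitA- Col1a1+ library and 75 of 178 of the VitA- Col1a1- labelled library (42.1%).

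**Figure D1:**
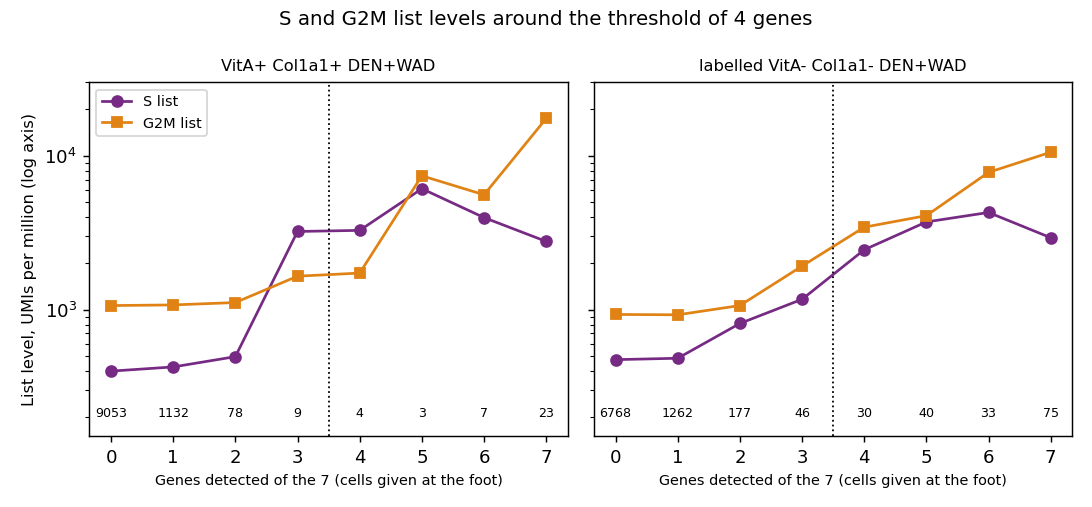
Summed level of the S list and the G2M list (y axis, CPM, log scale) in cells grouped by how many of the 7 genes they held (x axis), for the VitA+ Col1a1+ DEN+WAD library and the VitA- Col1a1- labelled DEN+WAD library, with the number of cells at the foot. The dotted line marks the threshold of 4 genes, and in the VitA+ Col1a1+ library the S list stands at 495 CPM with 2 genes and 3221 CPM with 3.

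The lineage of each cycling cell was read from 10 marker lists of 10 genes: a lineage was given when 4 or more of its markers had 2 or more UMIs, and a barcode with 5 or more markers of a second list was called mixed. Over the 3 libraries, 81 of the 223 cells were mesenchymal-like (36.3%), 60 macrophage-like (26.9%), 42 endothelial-like (18.8%) and 23 mixed (10.3%), and the remaining cells were 6 T or NK-like, 5 hepatocyte-like, 3 B or plasma-like, 1 dendritic-like and 2 unassigned. Most cycling cells thus belonged to lineages other than the stellate cell named in the labels. Detection of 4 single lineage genes can be read beside the lists. In the VitA+ Col1a1+ library 35 of 37 cycling cells had Lrat (the retinyl ester synthase of stellate cells) alone and 2 had Lrat with Pecam1 (the endothelial adhesion molecule), while C1qa (a macrophage complement gene) and Cd3e (a T cell receptor chain) were not detected. In the VitA- Col1a1- labelled library the largest classes were C1qa alone in 39 of 178 cells, Pecam1 with C1qa in 35, Lrat alone in 26, Pecam1 alone in 22 and Lrat with C1qa in 19, and 16 cells had none of the 4. UMIs of these genes also occurred in cells that the lists gave to another lineage. Whether those cells expressed the gene was not tested. In the VitA+ Col1a1+ library 14.4% of the 174 other endothelial-like cells, with a median of 8854 UMIs, held an Lrat UMI. In the VitA- Col1a1- labelled library, 827 of 3934 other mesenchymal-like and 466 of 2274 other endothelial-like cells held a C1qa UMI and 334 of 887 other macrophage-like cells a Pecam1 UMI, at median depths of 11748, 7934 and 17730 UMIs. The 10-gene lists are used below.

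The share of cells in cycle differed between lineages of the same library. In the VitA- Col1a1- labelled library, 60 of 947 macrophage-like cells were cycling (6.34%, 4.87 to 8.08), against 37 of 2311 endothelial-like cells (1.60%, 1.13 to 2.20) and 46 of 3980 mesenchymal-like cells (1.16%, 0.847 to 1.54). Macrophage-like cells made up 33.7% of that library's cycling cells and 11.2% of all its cells. The counts were 3 of 40 for B or plasma-like cells (7.50%, 1.57 to 20.4), 1 of 13 for dendritic-like cells (7.69%, 0.195 to 36.0), 6 of 120 for T or NK-like cells (5.00%, 1.86 to 10.6) and 5 of 148 for hepatocyte-like cells (3.38%, 1.11 to 7.71). These intervals overlap that of the macrophage-like cells. All 3 cycling B or plasma-like cells held Jchain, an antibody chain gene found in none of the 37 others, so their share joins unlike cells. Thinned to 5000 UMIs, the order changed: T or NK-like cells were at 6 of 42 (14.3%, 5.43 to 28.5) and macrophage-like cells at 40 of 841 (4.76%, 3.42 to 6.42). No cholangiocyte-like cell of 55 was cycling, which allows a share of up to 5.45%. Among mesenchymal-like cells, 35 of 10060 were cycling in the VitA+ Col1a1+ library (0.348%, 0.242 to 0.484) and 0 of 2135 in the VitA- Col1a1+ library, which allows a share of up to 0.141%, below the interval of either other library. The 8 cycling cells of the VitA- Col1a1+ library were 4 endothelial-like cells of 432 (0.926%) and 4 of 32 mixed barcodes, all 4 with endothelial and mesenchymal markers together.

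**Figure D2:**
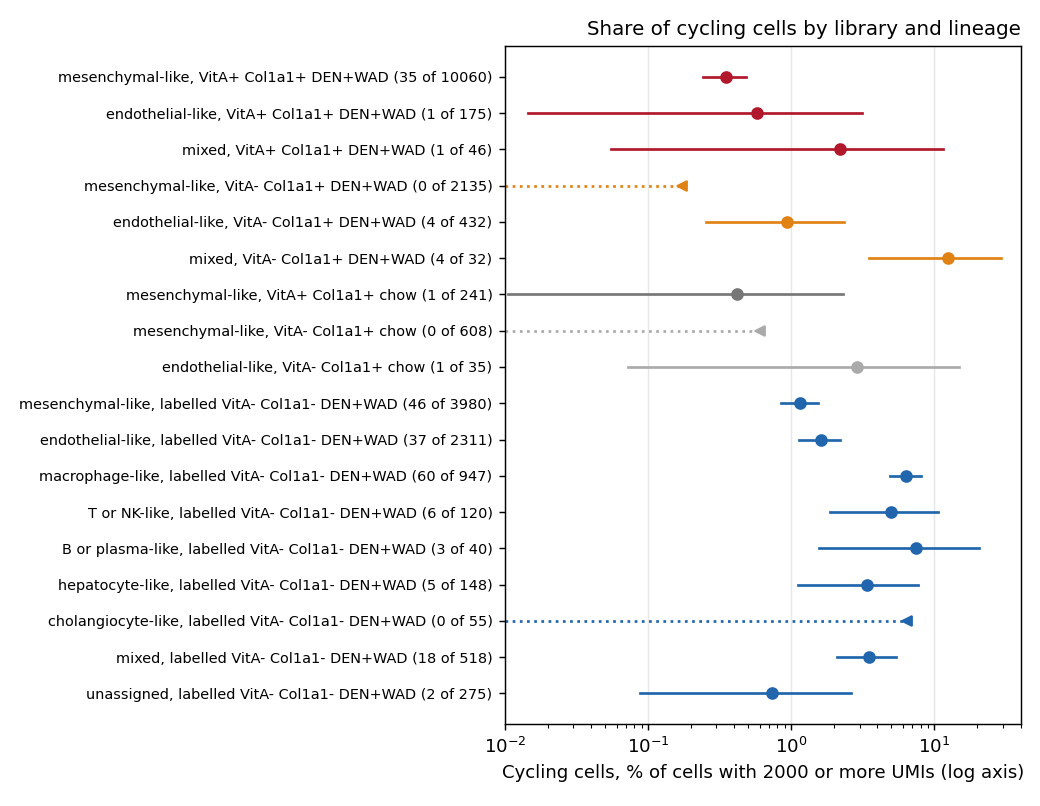
Share of cycling cells (x axis, percent of cells with 2000 or more UMIs, log scale) for each lineage of each library with 30 or more cells, with exact 95% intervals for counting error; triangles with dotted lines give the exact upper bound of the interval where no cycling cell was found. Macrophage-like cells of the VitA- Col1a1- labelled library stand at 6.34% and mesenchymal-like cells of the VitA+ Col1a1+ library at 0.348%.

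In the 4 groups with 20 or more cycling cells, these held more UMIs than the other cells of their library and lineage. The median was 31197 UMIs against 13319 in mesenchymal-like cells of the VitA+ Col1a1+ library (2.34 times), 18210 against 11748 in mesenchymal-like cells of the VitA- Col1a1- labelled library (1.55 times), 14532 against 7934 in its endothelial-like cells (1.83 times) and 30037 against 17730 in its macrophage-like cells (1.69 times). The 5 hepatocyte-like cycling cells had a lower median than the others (14788 against 21423 UMIs), as did the mixed cycling barcodes of the VitA+ Col1a1+ (10243 against 25239) and VitA- Col1a1+ libraries (24140 against 32061). A deeper cell has more chance to pass a rule that counts detected genes, and the part of depth in the differences below was not tested. Thinned to 5000 UMIs, 25 of 9984 mesenchymal-like cells of the VitA+ Col1a1+ library met the rule. The levels below are UMIs summed over cells and given as CPM, and many are also set against other cells of the same group matched on UMIs (the 5 nearest for each cycling cell). Mitochondrial transcripts took 2.40% of UMIs in cycling and 2.78% in other mesenchymal-like cells of the VitA+ Col1a1+ library. In the VitA- Col1a1- labelled library they took 3.26% and 3.58% in mesenchymal-like cells. The cycling cells were higher in its endothelial-like (4.37% and 3.95%) and macrophage-like groups (4.97% and 4.40%). No doublet caller was run. Mixed barcodes, which can be 2 cells, were left out of the 4 groups.

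The 7 genes themselves give the scale of the selection. Mki67 was found in 33 of 35 cycling mesenchymal-like cells of the VitA+ Col1a1+ library, with a median of 11 UMIs per cell, and in 4.78% of the other 10025 cells. Top2a was found in 34 of these 35 cells with a median of 33 UMIs. In the other groups Mki67 was found in 44 of 46 mesenchymal-like, 36 of 37 endothelial-like and 60 of 60 macrophage-like cycling cells, with medians of 5.5, 13 and 13 UMIs. Ccnb1 was the gene found in the fewest cycling cells of the mesenchymal-like and endothelial-like groups: 25 of 35, 28 of 46 and 20 of 37. In macrophage-like cells it was found in 42 of 60 and Ccnb2 in 41 of 60. Background was highest for Cdk1, with a UMI in 13.3% of other mesenchymal-like cells of the VitA- Col1a1- labelled library, and for Mki67, with a UMI in 11.5% of its other macrophage-like cells.

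Across all genes at 20 CPM or more, the cycling cells of the 4 groups differed from the other cells more often upwards than downwards. In mesenchymal-like cells of the VitA+ Col1a1+ library 713 of 6185 genes were 2-fold or more higher in cycling cells (11.5%) and 245 were 2-fold or more lower (3.96%). In mesenchymal-like cells of the VitA- Col1a1- labelled library, 517 of 6340 genes were higher (8.15%) and 239 lower (3.77%). In its endothelial-like cells 675 of 6547 were higher (10.3%) and 277 lower (4.23%), and in its macrophage-like cells 396 of 5472 were higher (7.24%) and 51 lower (0.932%). The median log2 ratio of all these genes was 0.21, 0.10, 0.06 and 0.13. Rescaling by TMM would lower every log2 ratio by 0.26, 0.13, 0.11 and 0.19 in the 4 groups, which moves no cell cycle list named below across 0. Counts of list members past 2-fold are to be read beside these shares, since the rule used the same contrast.

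Replication genes were higher in the cycling cells of every group. The list of 28 held the MCM helicase subunits Mcm2 to Mcm7, the sliding clamp Pcna, DNA polymerase subunits and the ligase Lig1. All 22 of its genes that reached 20 CPM were past 2-fold higher in mesenchymal-like cells of the VitA+ Col1a1+ library, 19 of 19 in those of the VitA- Col1a1- labelled library, 21 of 22 in its endothelial-like and 21 of 21 in its macrophage-like cells. The summed level was 1767 against 189 CPM (9.34-fold), 1359 against 177 (7.70-fold), 2110 against 323 (6.53-fold) and 2025 against 291 (6.96-fold). Per cell the list ranged from 0 to 167 UMIs, with a median of 32, in the 35 cycling cells of the VitA+ Col1a1+ library. Mcm5 stood at 84.4 against 3.11 CPM there (27.2-fold, 21.5 to 34.0) and at 179 against 13.9 CPM (12.8-fold, 10.7 to 15.3) in macrophage-like cells. Against cells matched on UMIs both ratios were 10.8. Nucleotide synthesis genes followed the same pattern, with summed ratios of 6.96, 4.92, 7.10 and 8.57. Rrm2, the regulated subunit of ribonucleotide reductase, stood at 108 CPM in cycling and 0.350 CPM in other mesenchymal-like cells of the VitA+ Col1a1+ library, where 18 of 35 cells held it. Tk1 (thymidine kinase) stood at 216 against 0.735 CPM in that group and at 248 against 23.2 CPM in macrophage-like cells, 295-fold (234 to 374) and 10.7-fold (9.26 to 12.3).

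Genes of the spindle and kinetochore were past 2-fold higher without exception, in 32 of 32, 32 of 32, 32 of 32 and 30 of 30 members tested. Their summed level was 13.8, 10.2, 14.5 and 10.7 times that of the other cells. Each cycling cell held between 13 and 1022 of these UMIs (median 384) in the mesenchymal-like cells of the VitA+ Col1a1+ library and between 6 and 383 (median 143) in macrophage-like cells. Prc1, the microtubule crosslinker of the midzone, stood at 831 against 0.481 CPM in the first and 271 against 1.24 CPM in the second. Stmn1, which destabilizes microtubules, was found in 35 of 35, 45 of 46, 37 of 37 and 59 of 60 cycling cells, with ratios of 390, 53.2, 66.0 and 31.4. Mitotic kinases and checkpoint genes were 13.7, 8.45, 16.3 and 8.02 times higher in sum, with 15 of 15, 14 of 15, 16 of 17 and 11 of 12 past 2-fold. Their exception was Pttg1 (securin, the separase inhibitor). It was 2.95-fold higher in mesenchymal-like cells of the VitA+ Col1a1+ library (199 against 67.2 CPM) and lower in the endothelial-like cells (21.9 against 44.9 CPM, 0.488-fold, 0.243 to 0.878), where it rested on 11 UMIs. Its ratio was 0.705 (0.515 to 0.942) and 1.33 (1.09 to 1.61) in the remaining groups.

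Chromatin and repair genes were also raised. The list of condensin, cohesin and chromatin genes was 6.07, 4.51, 5.85 and 5.72 times higher, and Hmgb2, a DNA-bending protein of dividing cells, was found in every cycling cell of all 4 groups with ratios of 16.6, 10.0, 16.5 and 9.53. Ezh2, the Polycomb methyltransferase, stood at 165 against 7.79 CPM, 121 against 15.8, 243 against 11.6 and 158 against 14.4. Genes of homologous recombination and Fanconi repair had the largest ratio of any list, 41.7, 29.3, 31.6 and 26.5, from 10.1 to 16.0 CPM in other cells, but only 4, 4, 6 and 4 of its 12 members reached 20 CPM, and against UMI-matched cells the first ratio was 25.6.

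**Figure D3:**
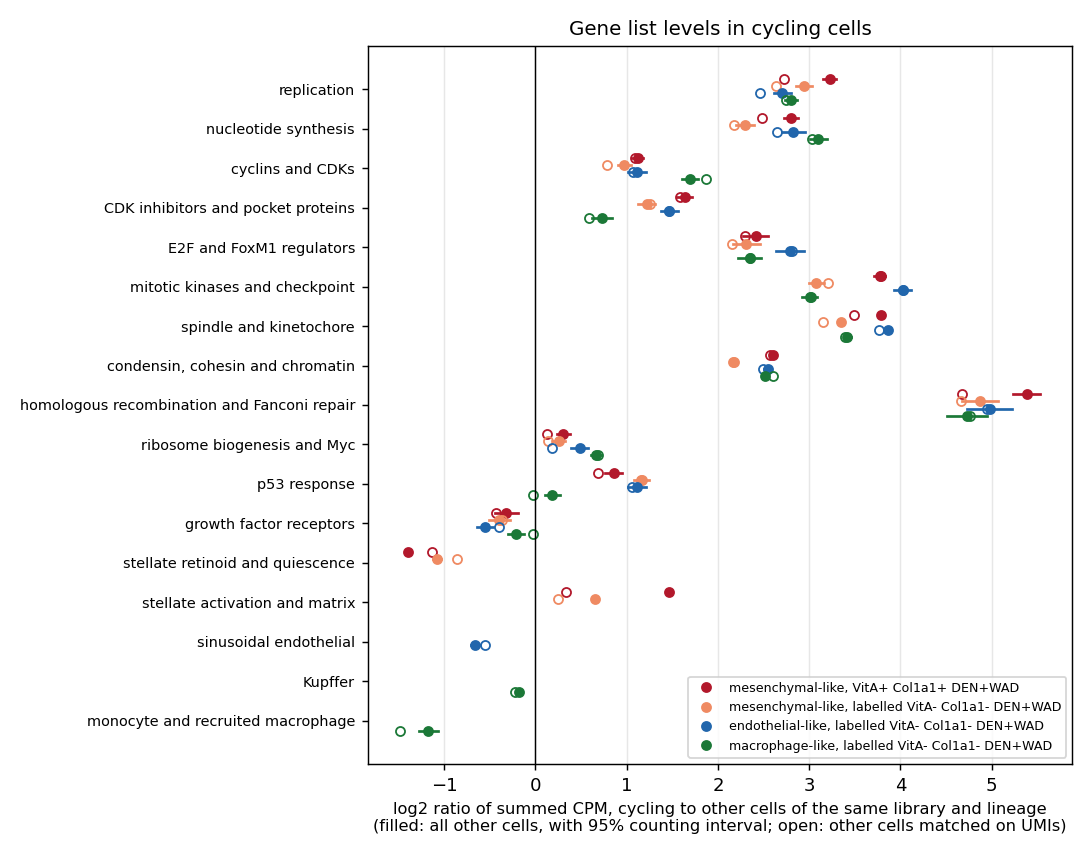
log2 ratio of summed CPM of each gene list (rows) in cycling cells to that in other cells of the same library and lineage, by colour for 4 groups, with 95% counting intervals; open circles give the ratio to other cells matched on UMIs, and lineage lists are drawn for their own lineage only. Replication, mitotic and repair lists lie to the right of 0 in all groups, the stellate retinoid, sinusoidal and monocyte lists to the left, and the activation and matrix list moves from 1.46 to 0.33 in the VitA+ Col1a1+ mesenchymal-like cells once depth is matched.

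Regulators of the cycle did not move as one. Cyclin A (Ccna2), which drives S phase and G2, stood at 211 against 0.199 CPM, 137 against 0.207, 363 against 0.760 and 99.4 against 0.311. Cyclin E (Ccne1), which opens S phase, had 66 UMIs in 25 of 60 cycling macrophage-like cells and 9 to 24 UMIs in the cycling cells of each other group. The D cyclins, which carry growth factor signals into G1, were not past 2-fold higher in the mesenchymal-like and endothelial-like cells. Ccnd1 had ratios of 1.22, 0.882, 0.878 and 0.795. Ccnd2 was lower, at 207 against 420 CPM, 195 against 363, 137 against 377 and 3.03 against 13.2, with ratios of 0.492, 0.539, 0.365 and 0.230, the last on 5 UMIs. Ccnd3 was past 2-fold higher in macrophage-like cells (2.03-fold, 1.60 to 2.55) and had ratios of 1.30, 0.949 and 1.24 in the others. Myc, a growth-promoting transcription factor, was also lower: 22.5 against 38.9 CPM, 27.8 against 58.9, 25.9 against 50.5 and 15.2 against 42.7 (ratios 0.578, 0.471, 0.513 and 0.355, on 13 to 26 UMIs a group). The ribosome biogenesis list that holds Myc had ratios of 1.24, 1.19, 1.40 and 1.59 in sum. Nucleolin (Ncl) gave 1.40, 1.38, 1.43 and 1.69.

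The list of inhibitors of the cyclin-dependent kinases and of pocket proteins had summed ratios of 3.11, 2.33, 2.77 and 1.66, and its members differed. Cdkn2c (p18), an inhibitor of Cdk4 and Cdk6, stood at 252 against 35.9 CPM in mesenchymal-like cells of the VitA+ Col1a1+ library, 151 against 66.1 in those of the VitA- Col1a1- labelled library, 353 against 13.1 in endothelial-like cells and 56.4 against 4.54 in macrophage-like cells. Its ratios were 7.01, 2.28, 26.8 and 12.4, and it was found in 28 of 35, 33 of 46, 30 of 37 and 40 of 60 cycling cells. Cdkn2d (p19), of the same family, had ratios of 5.96, 4.51, 10.9 and 5.34. Cdkn2a, whose products restrain Cdk4 and Mdm2, stood at 33.2 against 0.666 CPM in mesenchymal-like cells of the VitA+ Col1a1+ library (17 of 35 cells), where it fell short of 20 CPM on average, at 63.0 against 8.81 (26 of 46 cells; 7.15-fold, 5.35 to 9.41), 49.8 against 13.4 and 9.70 against 24.3 CPM. Against UMI-matched cells its endothelial ratio of 3.71 became 1.43. Cdkn1a (p21), the p53 target that halts the cycle, was past 2-fold higher in 3 groups, with ratios of 2.73, 3.03 and 2.30, and 1.24 in macrophage-like cells, where the UMI-matched ratio was 1.02. Cdkn1b (p27), the inhibitor of resting cells, had ratios of 0.861, 0.702, 1.82 and 1.48, none past 2-fold. The pocket protein Rbl1 (p107), an E2F target, was 13.2, 8.83, 13.6 and 8.06 times higher.

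The balance of S and G2M transcripts differed from cell to cell. More S than G2M UMIs were found in 6 of 35 (17.1%, 6.56 to 33.6) and 6 of 46 (13.0%, 4.94 to 26.3) mesenchymal-like cells of the VitA+ Col1a1+ library and the VitA- Col1a1- labelled library, in 5 of 37 endothelial-like cells (13.5%, 4.54 to 28.8) and in 17 of 60 macrophage-like cells (28.3%, 17.5 to 41.4). Thinned to 5000 UMIs the counts were 6 of 35, 4 of 44, 6 of 34 and 18 of 56. The intervals of the 4 groups overlap. S transcripts made up a median of 12.5%, 13.2%, 25.1% and 32.9% of the S and G2M UMIs of a cell, and ranged from 2.70% to 71.6% in the first group and from 0% to 70.4% in the last. Cells with all 7 genes were G2M-weighted: 0 of 22, 1 of 18, 0 of 18 and 2 of 30 had more S than G2M UMIs. Cells with 5 genes were the most S-weighted among macrophage-like cells, with 10 of 15. Since the 7 genes are mostly late genes, these shares describe the selected cells and not the time cells spend in each phase. The other cells of the 4 groups held a median of 7 to 14 G2M list UMIs, and free RNA was not modelled. Measured against the 99th percentile of the other cells of their group, 23 of 35, 21 of 46, 29 of 37 and 29 of 60 cycling cells were above it for both lists. Neither list was above it in 3, 1, 1 and 4 cells, so that 9 of the cells met the rule on 4 or more detected genes with list levels inside the range of other cells.

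**Figure D4:**
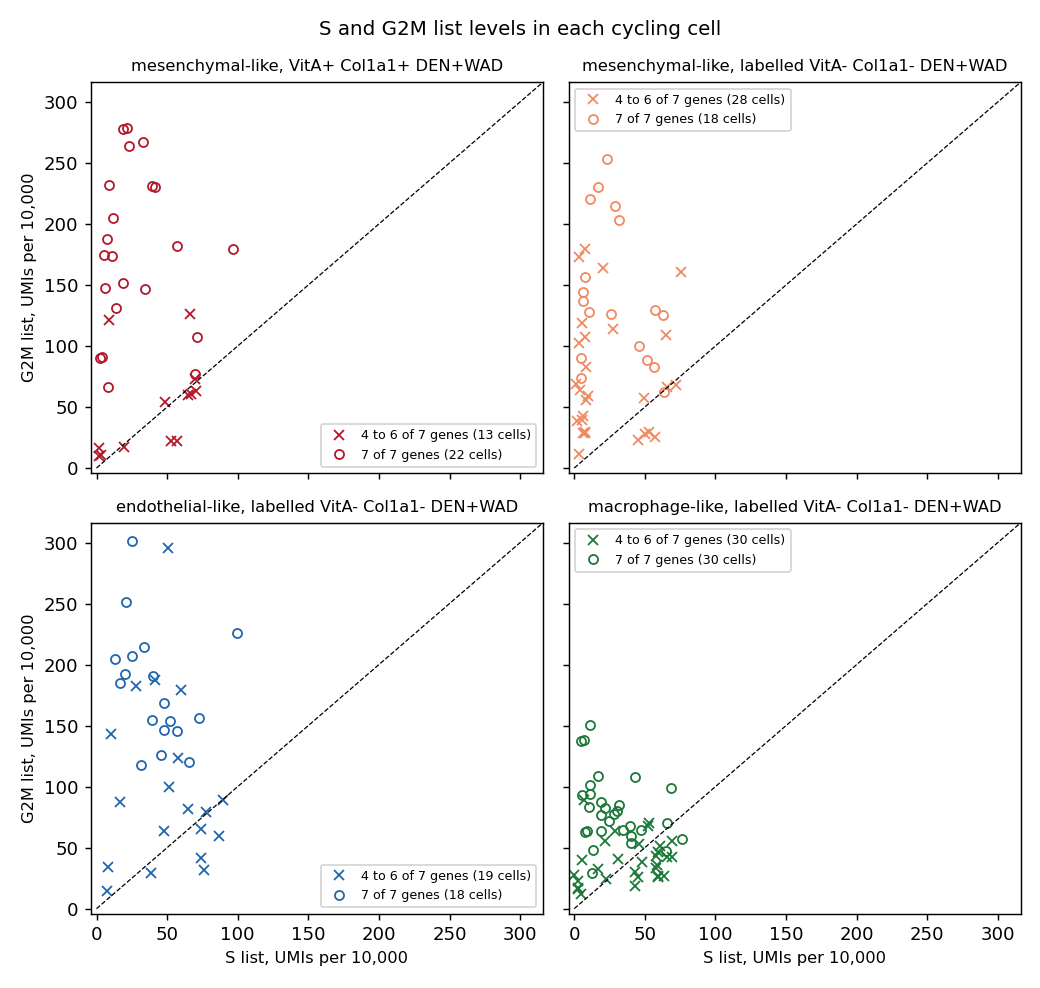
S list against G2M list level (UMIs per 10,000 UMIs of the cell) for each cycling cell of 4 groups; circles are cells with all 7 genes, crosses cells with 4 to 6, and the dashed line marks equal levels. Most cells lie above the line, and cells below it are nearly all crosses, 17 of 60 in the macrophage-like group.

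Mesenchymal-like cycling cells had less of the resting stellate programme than the other mesenchymal-like cells of their library. The retinoid and quiescence list summed to 10005 against 26393 CPM in the VitA+ Col1a1+ library (0.379-fold, 0.372 to 0.386) and to 4821 against 10146 CPM in the VitA- Col1a1- labelled library (0.475-fold, 0.461 to 0.489). No member was past 2-fold higher, while 7 of 11 and 5 of 10 were past 2-fold lower. Against UMI-matched cells the ratios were 0.46 and 0.55. Lrat stood at 433 against 1528 CPM in the VitA+ Col1a1+ library (0.283-fold, 0.259 to 0.310), where all 35 cycling cells held it at 2 to 71 UMIs with a median of 9, and other cells had a median of 20. In the VitA- Col1a1- labelled library it stood at 210 against 832 CPM (0.253-fold) and 34 of 46 cycling cells held it, with a median of 2 UMIs. Vipr1, the receptor for vasoactive intestinal peptide, had ratios of 0.238 and 0.290, Ecm1 (an extracellular matrix protein that holds latent TGF-beta in check) 0.318 and 0.332, Colec11 (a collectin of stellate cells) 0.325 and 0.399 and Rgs5 (a pericyte regulator of G protein signalling) 0.469 and 0.487. Reln, Hand2 and Lhx2 were lower by less than 2-fold, with ratios of 0.536 to 0.790 in both libraries. Dcn (decorin) stood at 14126 against 26631 CPM and at 5173 against 13720 CPM.

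Matrix genes were higher in the same cells, but much less so against cells matched on UMIs. The matched cells were an uncommon subset. Only 1.83% of other cells in the VitA+ Col1a1+ library, and 13.9% in the VitA- Col1a1- labelled library, were deeper than the cycling median. The activation and matrix list summed to 12584 against 4565 CPM in the VitA+ Col1a1+ library (2.76-fold, 2.71 to 2.80), with 8 of 14 members past 2-fold higher, and to 27136 against 17280 CPM in the VitA- Col1a1- labelled library (1.57-fold, 1.55 to 1.59), with 5 of 16. Against UMI-matched cells the ratios were 1.26 and 1.18, and 1 cell held 21.3% of the list's UMIs in the first group, without which its ratio was 2.26. Per cell the list ran from 27 to 2979 UMIs with a median of 253 in the VitA+ Col1a1+ library. Col1a1 stood at 1620 against 297 CPM there (5.45-fold, 5.20 to 5.72; UMI-matched 1.22) and at 4977 against 2036 CPM in the VitA- Col1a1- labelled library (2.44-fold, 2.37 to 2.52; UMI-matched 1.64). It was found in 32 of 35 and 46 of 46 cycling cells, with medians of 24 and 42 UMIs. Acta2 (smooth muscle actin) had ratios of 6.51 and 1.35, and 1.72 and 0.918 against matched cells. Of its 763 UMIs in the first group 41.2% came from 1 cell, and 14 of 35 cells held any. Lox, the collagen crosslinking enzyme, had ratios of 9.12 and 2.51, and 2.19 and 1.67 against matched cells. Timp1 (an inhibitor of metalloproteinases) had ratios of 4.74 and 3.19, and 1.17 and 1.56 against matched cells. Loxl2 was 2.53-fold and 1.51-fold higher. Pdgfra and Pdgfrb, the receptors through which platelet-derived growth factors drive stellate cell division, had ratios of 0.843 and 0.629 in the VitA+ Col1a1+ library and 0.599 and 0.748 in the VitA- Col1a1- labelled library.

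Several of the 10 genes with the smallest ratios in each mesenchymal-like group were as follows. In the VitA+ Col1a1+ library Vtn (vitronectin) stood at 3.59 against 49.3 CPM, Inmt (a methyltransferase) at 16.2 against 150, Epor (the erythropoietin receptor) at 11.7 against 76.8 and Mustn1 at 125 against 751 CPM. In the VitA- Col1a1- labelled library, Inmt stood at 4.27 against 87.3 CPM, Ccl19 (a chemokine for dendritic and T cells) at 10.7 against 79.5, Wnt4 at 8.54 against 67.3 and Angptl6 at 32.0 against 267 CPM. C7 (a complement component) stood at 2.14 against 39.8 CPM, on 2 UMIs. The smallest ratio of that group was that of Cyp2e1, a hepatocyte gene, at 1.07 against 61.5 CPM, on 1 UMI. Igkc, an immunoglobulin gene, stood at 12.8 against 177 CPM. It was found in 7 of 46 cycling cells and in only 4.19% of the other cells. Slfn5, a Schlafen family gene, was among the lowest in 2 of the 4 groups and past 2-fold lower in all 4. It stood at 22.5 against 175 CPM and 33.1 against 175 CPM in the mesenchymal-like cells of both libraries, 41.8 against 507 CPM in endothelial-like and 75.2 against 194 CPM in macrophage-like cells, and it was found in 8 of 35, 14 of 46, 8 of 37 and 37 of 60 cycling cells, against 82.6%, 70.7%, 89.5% and 78.1% of other cells. UMI-matched cells held 172, 172, 524 and 180 CPM.

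The genes with the largest ratios outside the cell cycle lists were mostly genes of division too. In mesenchymal-like cells of the VitA+ Col1a1+ library Ska1 (a kinetochore subunit) had 76 UMIs in 21 of 35 cycling cells and 1 UMI in all other cells. Pimreg, a mitotic regulator, had 250 UMIs in 29 of 35 cells against 5 UMIs, and Neil3 (a DNA glycosylase) 78 UMIs against 2. Pbk, a mitotic kinase, had 207, 112, 108 and 80 UMIs in the cycling cells of the 4 groups and 0 UMIs in the other 887 macrophage-like cells, against a floor of 3 UMIs at least 260-fold higher. Esco2, which acetylates cohesin in S phase, was found in 23 of 35, 22 of 46, 29 of 37 and 36 of 60 cycling cells and in at most 0.254% of the other cells of any group. Pclaf, a partner of Pcna, stood at 207, 295, 271 and 436 CPM. Sprr1a, which ranked highest in mesenchymal-like cells of the VitA- Col1a1- labelled library, had all its 40 UMIs in 1 cell. That cell was the deepest of the 46 (75028 UMIs, next 49373), met 4 of the 7 genes, carried 4 hepatocyte and 4 cholangiocyte markers besides 8 mesenchymal ones, and held 93.1% of the group's Spp1, 32.4% of its Cdkn1a, 54.1% of its Mdm2 and 79.5% of its Gdf15 UMIs. Without it the p53 response list, which was 2.24-fold higher in that group, was 1.71-fold higher, and whether the barcode held more than 1 cell was not tested.

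Endothelial-like cycling cells held the endothelial markers at a lower level. The sinusoidal list, of scavenger receptors and lectins of the liver's fenestrated capillaries, summed to 6574 against 10364 CPM (0.634-fold, 0.613 to 0.657; UMI-matched 0.68). Only Gpr182, a chemokine-scavenging receptor, was past 2-fold lower of its 9 members, at 390 against 836 CPM (0.467-fold, 0.404 to 0.538). Clec4g, Dnase1l3 and Fcgr2b had ratios of 0.534, 0.543 and 0.561, and Stab1, Stab2, Mrc1 and Lyve1 of 0.710, 0.802, 0.809 and 0.891. The list ranged from 13 to 205 UMIs per cycling cell with a median of 85, so every cycling cell held some of it. The receptors Kdr, Flt1 and Tek, through which VEGF and angiopoietins act, had ratios of 0.639, 0.738 and 0.716. The list of non-sinusoidal endothelial genes summed to 2193 against 3389 CPM (0.647-fold, 0.609 to 0.687; UMI-matched 0.601), with none of its 9 tested members past 2-fold higher and 2 past 2-fold lower. Rspo3, the central vein R-spondin that amplifies Wnt signals, had a ratio of 1.69, and 1.11 against matched cells, in 10 of 37 cells. Mecom, Mctp1 and Adgrg6 were almost absent from cycling cells, with 2, 1 and 2 UMIs against 59.5, 43.3 and 48.3 CPM in other cells. Immunoglobulin transcripts (Ighg2b, Igkc and Jchain) were also among the lowest, at 1, 2 and 1 UMIs, but lay in at most 3.17% of the other cells.

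Macrophage-like cycling cells held the tested genes of Kupffer cells, the resident macrophages of the liver, within 2-fold of the other cells. They were low in Gpnmb and Trem2, 2 genes of the monocyte and recruited macrophage list. The Kupffer list summed to 11360 against 12850 CPM (0.884-fold, 0.871 to 0.897), with none of its 7 tested members past 2-fold in either direction. Clec4f, the lectin that marks Kupffer cells, stood at 2353 against 2626 CPM and was found in 50 of 60 cycling cells. Cd5l, Vsig4, Timd4 and Folr2 had ratios of 0.818, 0.728, 0.822 and 0.910. Marco, a scavenger receptor, had 1.59 and was found in 21 of 60 cycling cells, with 23.7% of its UMIs in 1 cell. The monocyte and recruited macrophage list summed to 502 against 1131 CPM (0.444-fold, 0.414 to 0.476, and 0.36 against UMI-matched cells). Of its 5 tested members, Gpnmb and Trem2 were past 2-fold lower and the others were not. Gpnmb stood at 156 against 518 CPM (0.301-fold, 0.265 to 0.341) and was found in 25 of 60 cycling cells and 47.2% of others. Trem2, the lipid receptor, stood at 87.3 against 241 CPM (0.363-fold, 0.305 to 0.428). Outside that list, Spp1 (osteopontin) stood at 11.5 against 95.3 CPM and Atp6v0d2 (a lysosomal proton pump subunit) at 29.1 against 124. Mmp19 stood at 9.09 against 43.9 and Mgll (monoacylglycerol lipase) at 4.24 against 39.0 CPM. Csf1r, the receptor for macrophage growth factors, was found in all 60 cycling cells with a ratio of 0.867 (0.818 to 0.919). Of the marker lists of other lineages, the mesenchymal markers summed to 142 CPM in cycling and 143 CPM in other macrophage-like cells, the endothelial markers to 329 and 330 CPM and the dendritic markers to 684 and 771 CPM.

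**Figure D5:**
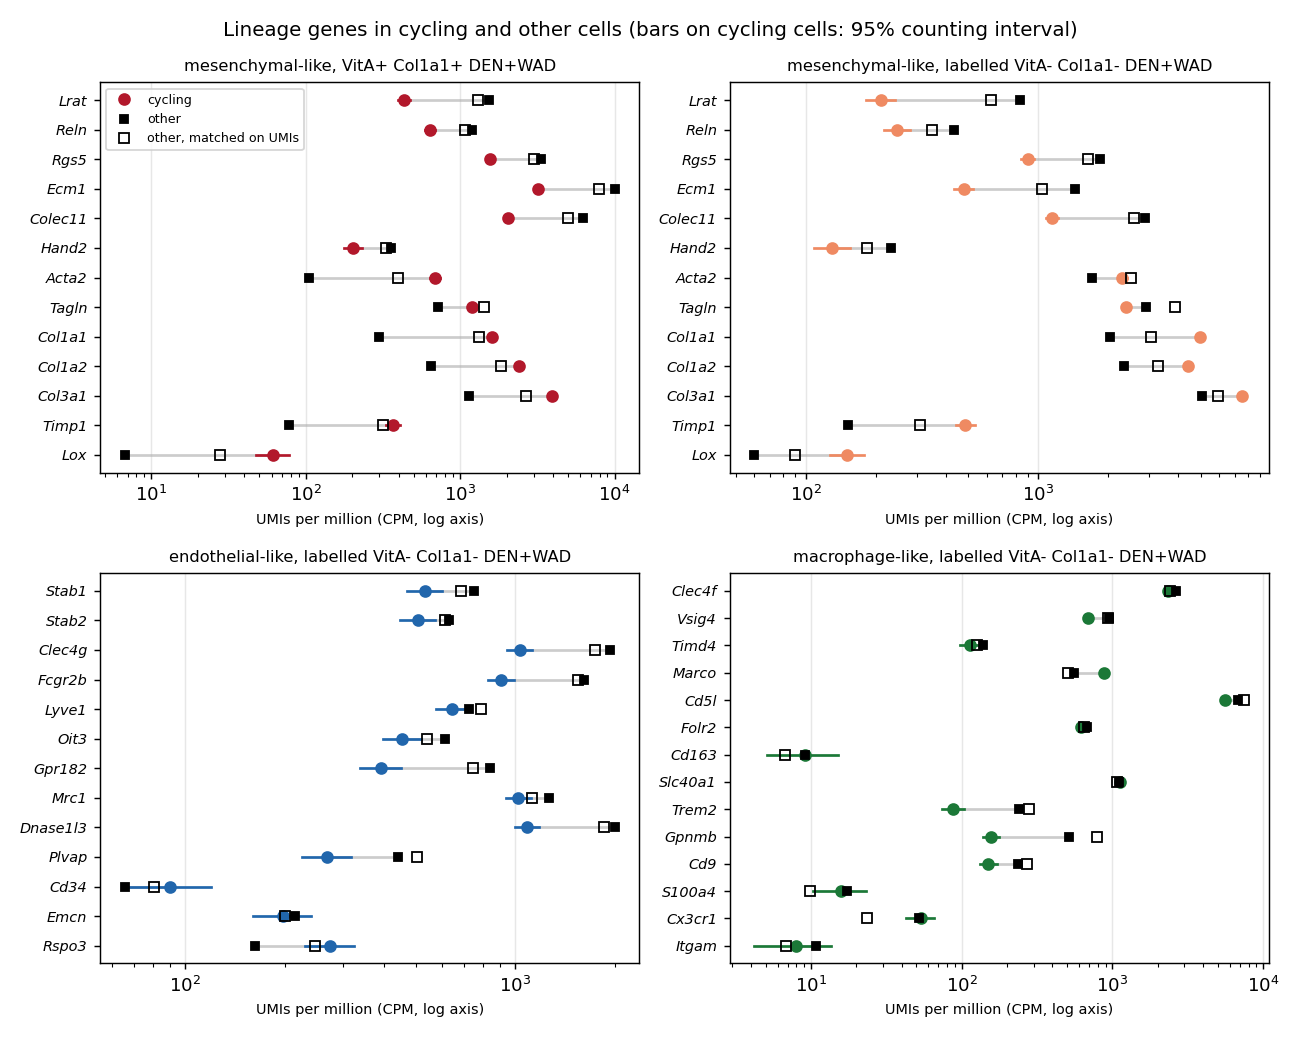
Level of lineage genes (x axis, CPM, log scale) in cycling cells (coloured circles with 95% counting intervals), in all other cells of the same library and lineage (filled squares) and in other cells matched on UMIs (open squares), in 4 panels. Lrat, Ecm1 and Colec11 lie below the other cells in both mesenchymal-like panels, Col1a1 of cycling cells lies far nearer to matched than to all other cells in the VitA+ Col1a1+ panel, and Trem2 and Gpnmb lie below them in the macrophage-like panel.

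The smallest groups can be described cell by cell only. The 3 cycling B or plasma-like cells of the VitA- Col1a1- labelled library all held Jchain (1578 UMIs together), the joining chain of secreted antibody, which none of the 37 other cells of that lineage held. Igkc stood at 141746 against 7906 CPM. Ighm was found in none of the 3 and in 35 of the 37, and Ms4a1 (CD20, a mature B cell marker) in 1 of the 3 and 33 of the 37. Of the 6 cycling T or NK-like cells, 5 held Cd3e (30 UMIs), 3 Gzmb (granzyme B, 86 UMIs) and 3 Cd8a, against 100, 56 and 51 of the 114 others. The 5 hepatocyte-like cycling cells held Alb (albumin) at 10474 against 39593 CPM in the 143 others. Hnf4a, the hepatocyte master regulator, was found in 2 of the 5, against 108 of 143. Of the other hepatocyte markers, Ttr stood at 5060 against 6314 CPM (5 of 5 cells) and Cps1 was higher, at 291 against 249 CPM (3 of 5 cells). Of the 4 endothelial-like cycling cells of the VitA- Col1a1+ library, 2 held Apln (41 UMIs), a ligand of angiogenic tip cells, against 8 of 428 others, and Esm1, of the same cells, stood at 543 against 112 CPM in 2 of the 4. The other endothelial genes looked at were all lower in these 4 cells. Kdr stood at 1380 against 2313 CPM, Clec4g at 1337 against 2880, Plvap at 354 against 437 and Vwf at 8.62 against 107. The S and G2M lists of these 4 cells stood at 6011 and 11383 CPM, against 840 and 1033 CPM in the other endothelial-like cells. Mixed cycling barcodes numbered 18 in the VitA- Col1a1- labelled library, of which 9 held macrophage and mesenchymal, 6 endothelial and macrophage and 1 endothelial and mesenchymal markers. The remaining 2 joined hepatocyte with endothelial or mesenchymal markers and held 60339 and 62934 UMIs.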

How the data were processed

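The deposited files were filtered 10x Genomics matrices of UMI counts, 1 per library, which the authors made with Cell Ranger on mm10. The submitters' notes and 4 matrix headers name version 3.1.0, and the header of the VitA- Col1a1- labelled library names 6.1.2. The labels disagree on the 3' kit, whose version stands as v3.1 in their description and as v2 in their protocol. The counts were used as deposited and not normalized.

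The lists of genes and the cycling cells were chosen with earlier results of these data known, and the scoring of lineages (4 markers at 2 or more UMIs, 5 markers of a second list for mixed barcodes) was chosen after the data were seen. Cells under 2000 UMIs were left out. UMIs were summed over the cycling and the other cells of a library and lineage, scaled to CPM over all 31053 genes, and compared as ratios of CPM for genes whose mean over both was 20 CPM or more. Counts, shares and ratios carry exact Poisson, Clopper-Pearson and conditional binomial 95% intervals, which cover counting error only. With 1 library per group no test was made. Named genes were the 7 genes of the rule, the members of the lists and, in groups with 20 or more cycling cells, the 10 genes with the largest and the 10 with the smallest ratio. Other genes, in the paragraph on small groups and in the closing section, were chosen after their values were seen. The comparison of S and G2M levels with the 99th percentile of other cells was also added then. Cells were thinned to 5000 UMIs with a fixed random seed. Software was Python 3.11.15, numpy 2.4.6, scipy 1.17.1, pandas 2.3.3, matplotlib 3.10.9 and, for TMM factors, edgeR 4.0.16 in R 4.3.3. Summation and ratios were tested on simulated data. No doublet caller was run. Promoter windows came from RefSeq tables of GRCm38.p6, and 99.6% of gene identifiers (30934 of 31053) matched the GENCODE annotation of that build.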

Additional observations from a re-analysis of the deposited data

Results flagged for a closer look

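Ankrd1, a YAP and TEAD target, differed in opposite directions between the mesenchymal-like cycling cells of the 2 libraries. Its level was 7.49 times that of the other cells in the VitA+ Col1a1+ library and 0.359 times in the VitA- Col1a1- labelled library, and the difference between the 2 ratios was not tested. Of the 56 Ankrd1 UMIs of the first group 71.4% came from 1 cell, and the second group had 61 UMIs in 13 of 46 cells. Ctgf, a target of the same pathway, had ratios of 1.14 and 0.307.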

How the results depend on the processing

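No paired analysis was possible because each group is 1 library. The share of cycling cells in the VitA- Col1a1- labelled library was 2.66% with 3 or more of the 7 genes, 1.76% with 5 or more and 1.72% thinned to 5000 UMIs. Thinning gave 0.828% for its mesenchymal-like and 4.76% for its macrophage-like cells, below the 14.3% (6 of 42) of its T or NK-like cells, and the 4 single genes put 43.8% of its cycling cells with the macrophages. In the order of the 4 groups, genes past 2-fold higher and lower numbered 5837 and 844, 4893 and 1014, 4356 and 954, and 2496 and 571 with no filter on low values, and 340 and 148, 233 and 133, 347 and 119, and 163 and 20 at a minimum of 50 CPM. TMM scaling gave 448 lower genes in the first and 97 in the last group. The monocyte list in mesenchymal-like cells changed sign: in the VitA+ Col1a1+ library its log2 ratio became -0.022 against UMI-matched cells, -0.059 under TMM and -0.0043 without the cell with most of its UMIs, and in the other library -0.0028 against matched cells. The p53 list of macrophage-like cells became -0.027 against matched cells. Of 783 alternative values of 87 list ratios, 481 lay within the interval of the reported value and 297 outside it. The other 5 are the changes of sign given above. Among the 297, values also crossed a ratio of 1 where the reported interval held 1. Against matched cells, the Kupffer list of mesenchymal-like cells of the VitA- Col1a1- labelled library went from 0.860 to 1.08. The list of genes that the study discusses went from 1.04 to 0.971 in macrophage-like cells. The cause of these changes was not tested. Leaving out the cycling cell with the most UMIs of each list was added after the data were seen. Depth limits the small groups: 1 UMI in the 37 endothelial-like cells is 1.99 CPM, and 1 library per group leaves the spread between animals unmeasured.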

Other observations

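Regulators of the cycle that no paragraph above names were also higher in the selected cells. The list of E2F and FoxM1 regulators had ratios of 5.33, 4.97, 6.92 and 5.09 in the 4 groups, in the order used above. Foxm1, which drives the G2 and M genes, was found in 24 of 35, 27 of 46, 29 of 37 and 36 of 60 cycling cells, with 71, 58, 77 and 63 UMIs. E2f8, a repressor that closes the S phase programme, was found in 18, 20, 17 and 29 of the same cells. Aurkb, the kinase of the chromosomal passenger complex, stood at 124 against 0.103 CPM, 61.9 against 0.455, 147 against 0.598 and 90.9 against 2.18.

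The list of growth factor receptors had ratios of 0.803, 0.759, 0.682 and 0.863. Only 5, 6, 5 and 1 of its 13 members were tested, and none of those was past 2-fold in either direction. The p53 response list had ratios of 1.82, 2.24, 2.17 and 1.14. Bax, its pro-apoptotic member, had ratios of 1.64, 1.68, 2.21 and 1.11. The list of genes that the study discusses had ratios of 0.851, 0.606, 1.04 and 1.04, and no T cell state gene reached 20 CPM in any of the 4 groups. Tcp11l2 was past 2-fold lower in all 4 groups, with ratios of 0.118, 0.232, 0.147 and 0.125, the last on 3 UMIs (interval 0.0257 to 0.371).

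Histone genes, most of whose mRNAs lack a poly(A) tail, differed between libraries in which gene was detected. Hist1h1b, a linker histone, had 0 UMIs in the 35 mesenchymal-like cycling cells of the VitA+ Col1a1+ library and 159, 230 and 1170 UMIs in 8 of 46, 16 of 37 and 54 of 60 cycling cells of the groups from the VitA- Col1a1- labelled library. Hist1h2ap had 260 UMIs in 19 of 35 cells of the former and 41, 24 and 91 UMIs in 13 of 46, 13 of 37 and 32 of 60 of the latter. The matrix headers of these libraries name different Cell Ranger versions, and the part of that difference in the histone counts was not tested.

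Outside the cycling cells, the S list of other mesenchymal-like cells lay between 402 and 453 CPM and the G2M list between 1000 and 1133 CPM over all 5 libraries, chow included.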
